A study of Mus musculus with 8 samples.

Results

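The endothelin system of the mouse retina was described through 6 genes: the ligands Edn1, Edn2 and Edn3, the receptor Ednrb, and the converting enzymes Ece1 and Ece2. They were picked by name, and every probe set whose annotation gave only that symbol was kept, which gave 14 of the 34945 probe sets with 1 gene symbol. Edn1 and Edn2 had 1 probe set each, Ece2 had 2, Ednrb and Ece1 had 3 each, and Edn3 had 4. RNA came from whole retinas of pups at postnatal day 8 on a mixed background, mainly C57BL/6 and 129. The 4 Control samples carried Six3-Cre alone, and the 4 Z/Edn2 samples carried Six3-Cre together with Z/Edn2, a transgene that yields Edn2 once Cre has recombined it. Six3-Cre acts in precursors of the neural retina, and with fathers written as Six3-Cre; Six3-Cre, Control and Z/Edn2 pups alike carried it. Pups with the transgene were found by LacZ staining of tail clips, and each array held pooled retinas of 2 to 3 pups.

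Endothelins are short secreted peptides that constrict vessels and signal to glia. Each is cut from a larger precursor, first by furin-type convertases to an inactive intermediate and then by an endothelin-converting enzyme to the active peptide, which binds G protein-coupled receptors. In the mouse retina Edn2 is known as a gene that photoreceptors switch on under stress, and Ednrb, the endothelin B receptor, as a receptor of astrocytes and Mueller glia. The endothelin A receptor, Ednra, had no probe set with that symbol alone, so it was not read. The comparison of Z/Edn2 with Control asks whether mRNA of the other measured members changed when the retina carried an extra source of the ligand.

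Across the 34945 probe sets, 31 were higher and 9 lower in Z/Edn2 by limma at an adjusted p under 0.05, which is 0.114% of those tested. Array medians lay between 6.48 and 6.60 (log2 signal), with the highest in Z/Edn2 3, whose interquartile range of 3.18 was below the 3.30 to 3.41 of the other arrays. The mean of the rod markers lay between 11.3 and 12.2 in all 8 arrays. Among these markers Gnat1 varied most, from 9.59 to 12.2 in Control and from 9.17 to 11.5 in Z/Edn2. It was lowest in replicate 1 and highest in replicate 2 of each genotype. As a gauge of signal without expression, 43 probe sets of olfactory receptors, genes of the nose, had a median of 3.88 and a 95th percentile of 5.31. Probe sets differ in how well they bind, so this gauge marks a dim probe set and gives no order of levels between genes.

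Of the 14 probe sets of the endothelin system, 0 passed by limma in either direction. The smallest adjusted p was 0.9997, and it was 0.493 with the replicate number as a block. An unadjusted limma p under 0.05 was reached by 1 of the 14, an Ece2 probe set, against 4.03% of all probe sets. The same probe set was the only 1 of the 14 whose groups did not overlap, against 3.13% of all probe sets. The log2 fold changes ran from −0.020 to 0.24 with a median of 0.094, against a median of 0.018 over all probe sets. The largest change in signal that any of the 95% intervals allowed was 1.59-fold higher and 0.693-fold, both for Ece1. For probe sets below the gauge, that of Edn2 among them, the signal lay near background. Their intervals therefore do not bound a change in mRNA.

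**Figure D1:**
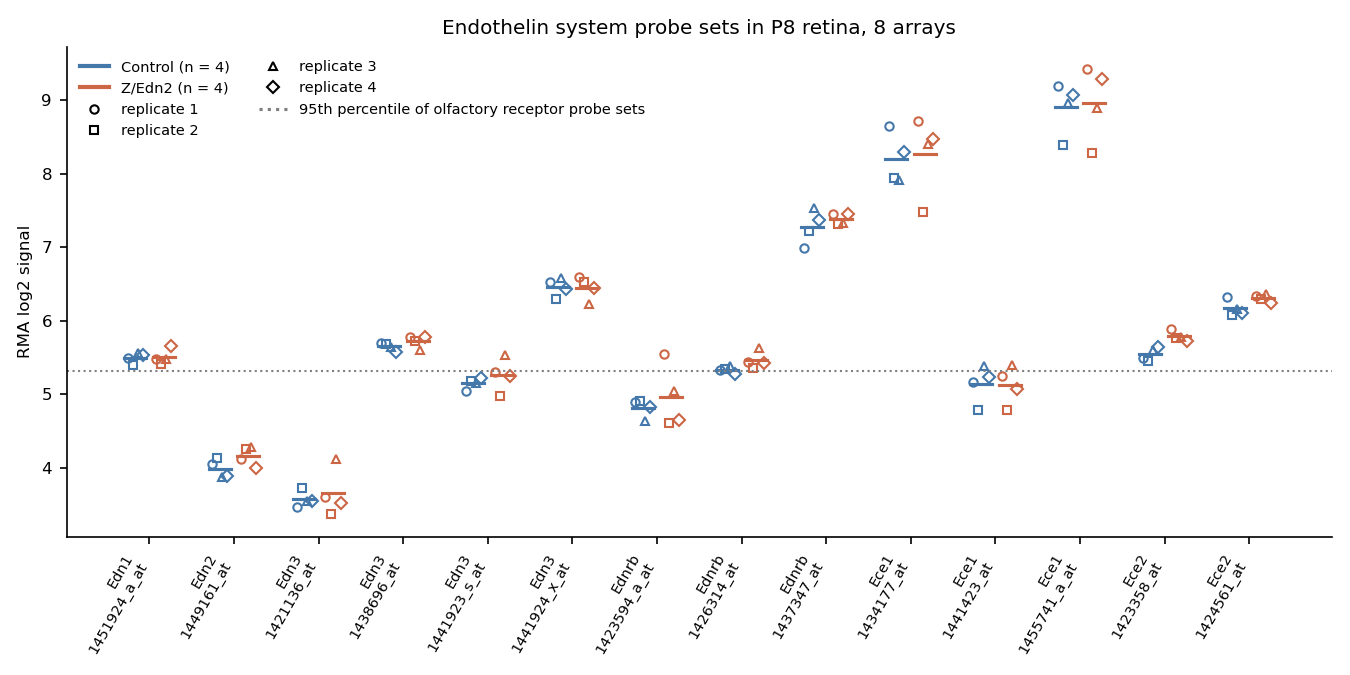
RMA log2 signal of the 14 probe sets in each array, Control in blue and Z/Edn2 in orange, with a bar at each group mean and a marker shape for each replicate number. The dotted line is the 95th percentile of olfactory receptor probe sets (5.31), and the 2 groups overlap for every probe set but Ece2 1423358_at.

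Positive differences were the more frequent, at 12 of 14 probe sets against 56.3% of all. Dim probe sets leaned the same way in general. Of the 11103 probe sets at or below the olfactory receptor gauge, 73.2% had a log2 fold change above 0, against 48.4% of the 23842 above it. Among the olfactory receptors themselves, 34 of 43 were above 0. Of the endothelin system 9 probe sets lay above the gauge, and 8 of these were above 0. The count of 12 became 11 of 14 after each array was centred on its median (46.5% over all probe sets), between 9 (without Control 2 or Z/Edn2 1) and 13 (without Control 1, Control 3, Control 4 or Z/Edn2 2) when single arrays were left out, and 8 without Control 1, Z/Edn2 1 and Z/Edn2 3. Probe sets of a gene share their transcript, so the 14 are not independent.

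Edn2, the ligand that the transgene adds, was dim in both genotypes. Its probe set 1449161_at read 4.04, 4.12, 3.87 and 3.88 in Control 1 to 4 and 4.12, 4.25, 4.28 and 4.00 in Z/Edn2 1 to 4. The groups overlapped, since Z/Edn2 1 and Z/Edn2 4 lay within the Control range, and every value was below the gauge of 5.31. The log2 fold change was 0.18 ± 0.0975 (SE), with a 95% interval of −0.035 to 0.40. The limma adjusted p was 0.9997, and 0.603 with pairs blocked. A two-sided exact permutation p was 0.143, where 0.0286 is the smallest possible. The value was higher in all 4 same-numbered pairs, as were those of 11% of all probe sets, and the largest pair difference, 0.41, was that of replicate 3. Whether this probe set lies within the transcript of the transgene was not given in the sources used here, so a level this near to background is no check of the genotype labels.

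The promoter of the native Edn2 gene is shown because the transgene adds Edn2 from another place in the genome. These are the 250 bases before its start in RefSeq (GRCm38.p6, plus strand, chr4:120160956-120161205).
Edn2: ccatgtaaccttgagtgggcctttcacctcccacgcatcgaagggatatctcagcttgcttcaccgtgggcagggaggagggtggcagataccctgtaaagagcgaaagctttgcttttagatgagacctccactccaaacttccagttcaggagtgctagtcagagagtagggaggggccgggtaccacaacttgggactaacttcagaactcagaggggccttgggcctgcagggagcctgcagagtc
Promoters were searched for ACGTG on both strands, the core of the element that hypoxia-inducible factors bind, because Edn1 is known in human cells as a target of these factors. The letters ACGTG were not in this Edn2 window, nor in those of Edn1, Edn3 and Ednrb. Of 32851 mouse promoter windows of this length, 16.6% held them.

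Edn1, the endothelin of vessel walls, had nearly the same mean in both genotypes. Probe set 1451924_a_at read 5.49, 5.40, 5.55 and 5.53 in Control 1 to 4 and 5.48, 5.41, 5.47 and 5.66 in Z/Edn2 1 to 4. The ranges overlapped, with Control 2 the lowest and Z/Edn2 4 the highest, above every Control array. The log2 fold change was 0.013 ± 0.0834 (SE; limma adjusted p = 0.9997), and its 95% interval reached from 0.886-fold to 1.15-fold. After median centring the value was −0.015. Of 8 endothelial markers in the same samples 1 passed: Tek, the angiopoietin receptor, fell by 1.54 on the log2 scale (limma adjusted p = 0.00418). Of the other 7, 5 had negative values and 2, Pecam1 (0.063) and Emcn (0.16), had positive values. By the brightest probe set, 3 of the 8 had an unadjusted limma p under 0.05, against 4.03% of all probe sets. These were Tek and Cldn5 (−0.91), each without overlap, against 3.13% of all, and Tie1 (−0.50), with overlap. The mean of the 8 lay between 6.22 and 6.41 in Control and between 5.58 and 6.13 in Z/Edn2. In bulk tissue fewer cells of a type and less RNA per cell cannot be told apart, and the part of the endothelial markers in the Edn1 value was not tested.

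Edn3, the ligand known for its role in pigment cells and enteric neurons, was read by 4 probe sets that did not all vary together. The brightest, 1441924_x_at, lay between 6.29 and 6.57 in Control and between 6.23 and 6.59 in Z/Edn2, with a log2 fold change of −0.0043 ± 0.104 (SE). Probe set 1438696_at lay between 5.58 and 5.69 in Control and between 5.61 and 5.78 in Z/Edn2, with a log2 fold change of 0.073 ± 0.0771 (SE). In each the groups overlapped.

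The other two Edn3 probe sets lay below the gauge of 5.31 on average. Probe set 1421136_at read 3.46, 3.72, 3.55 and 3.55 in Control 1 to 4 and 3.59, 3.36, 4.12 and 3.52 in Z/Edn2 1 to 4. Only Z/Edn2 3 stood above the Control range, and that array also had the narrow spread of signals given above and the lowest signal of Xist, the RNA of the inactive X, at 6.57 against 10.2 to 12.4 in the other 7 arrays. The log2 fold change of 0.081 became −0.076 without Z/Edn2 3. Probe set 1441923_s_at was likewise highest in Z/Edn2 3, at 5.53 against 4.98 to 5.31 in the other 7 arrays, and its log2 fold change of 0.12 ± 0.116 (SE) was 0.030 without that array. The part of these array differences in the Edn3 values was not tested.

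After removal of the group means the pair of dim Edn3 probe sets had a Pearson r of 0.89 over the 8 arrays, while 1421136_at and 1441924_x_at had one of −0.80. These points share their libraries, and the r is a description. A name ending in x marks probes that may bind other transcripts, and a name ending in s marks probes shared by several transcripts. Markers of pigment epithelium and of melanocytes, the pigment cells that need Edn3, were present on these arrays, with 7 of 8 above the gauge, but 0 of their 12 probe sets passed. The marker mean lay between 6.62 and 6.90 in Control and between 6.44 and 7.08 in Z/Edn2.

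Ednrb, the receptor through which retinal glia sense endothelins, also had 0 probe sets that passed. Its brightest probe set, 1437347_at, read 6.99, 7.22, 7.53 and 7.37 in Control 1 to 4 and 7.45, 7.31, 7.32 and 7.45 in Z/Edn2 1 to 4. The Z/Edn2 values fell inside the Control range and were closer together, with an SD of 0.0765 against 0.229. Control 1 was the lowest, and without the pair of replicate 1 the log2 fold change of 0.11 ± 0.117 (SE) was −0.010.

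Probe set 1426314_at of Ednrb read 5.33, 5.34, 5.38 and 5.27 in Control 1 to 4 and 5.44, 5.36, 5.63 and 5.42 in Z/Edn2 1 to 4. Z/Edn2 2 alone lay within the Control range, and all 4 pairs were higher in Z/Edn2, with a log2 fold change of 0.13 ± 0.0829 (SE; limma adjusted p = 0.9997, and 0.66 with pairs blocked). Without Z/Edn2 3 the log2 fold change was 0.074. This probe set lay close to the gauge. The dimmest, 1423594_a_at, read 4.64 to 4.91 in Control and 5.55, 4.60, 5.04 and 4.64 in Z/Edn2 1 to 4, so its log2 fold change of 0.14 ± 0.194 (SE) rested on Z/Edn2 1 and became −0.053 without that array. The 3 Ednrb probe sets had pairwise Pearson r of 0.23, −0.10 and 0.0074 over the 8 arrays after removal of the group means, so they did not rise and fall together.

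Markers of glia that carry Ednrb gave 0 calls by adjusted p, though several had a small unadjusted p. The mean of 5 astrocyte markers lay between 7.13 and 7.48 in Control and between 7.74 and 7.88 in Z/Edn2, all 5 had positive values, and the median log2 fold change was 0.49. Of 8 Mueller glia markers 2 had positive and 6 negative values, and their mean lay between 9.63 and 10.03 in Control and between 9.64 and 9.77 in Z/Edn2. Of the 12 astrocyte and 21 Mueller glia probe sets 0 passed. By the brightest probe set, 4 of 5 astrocyte markers had an unadjusted limma p under 0.05, against 4.03% of all probe sets (958 of 18193 with 1 probe set per gene). These were Aldh1l1 (0.46), Slc14a1 (0.68), Igfbp5 (0.74) and Pdgfra (0.49), each without overlap, against 3.13% of all. Gfap overlapped. Of the 8 Mueller glia markers 3 were under 0.05: Sox9 (0.56) and Slc1a3 (−0.21) without overlap, and Vim (0.34) with overlap. The marker lists were chosen with earlier results of these data known, so their counts are a description. The part of glial markers in the Ednrb values was not tested.

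**Figure D2:**
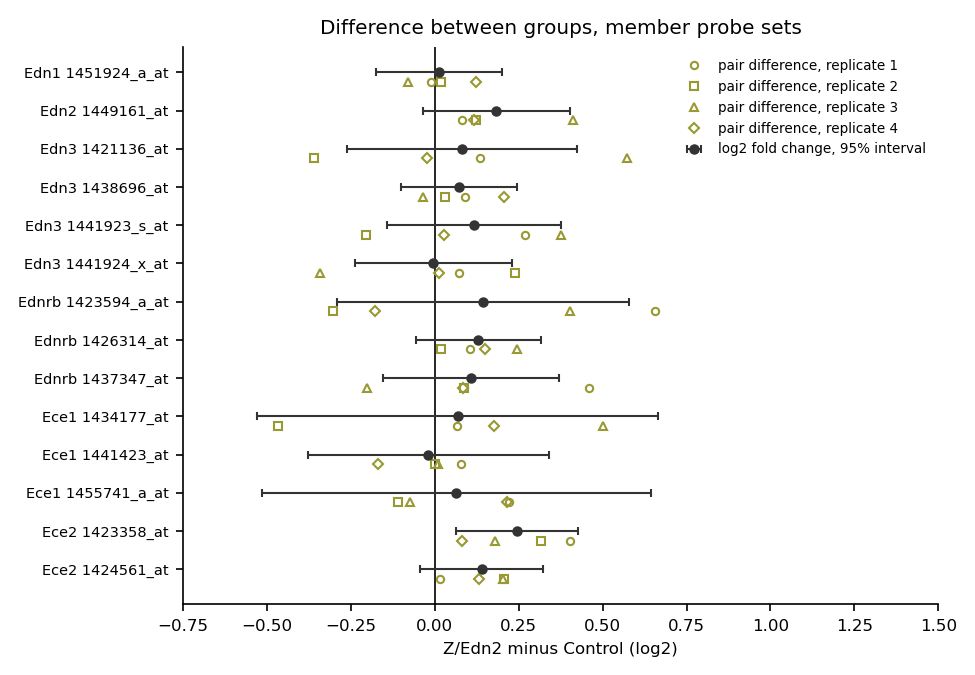
Log2 fold change, Z/Edn2 minus Control, of the 14 probe sets with its 95% interval (black) and, below each, the differences within the 4 same-numbered pairs (open symbols). The interval of Ece2 1423358_at (0.063 to 0.43) lies above 0 and the other 13 include 0, while Ece1 1434177_at and 1455741_a_at have the widest.

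Ece2, a converting enzyme found mainly in neurons and active in acidic vesicles, came nearest to a difference. Probe set 1423358_at read 5.49, 5.45, 5.60 and 5.65 in Control 1 to 4 and 5.89, 5.77, 5.78 and 5.73 in Z/Edn2 1 to 4. The lowest Z/Edn2 array lay 0.080 above the highest Control array. The log2 fold change was 0.24 ± 0.0808 (SE), or 1.19-fold (95% interval 1.04 to 1.34), with an unadjusted limma p of 0.0135 and an adjusted p of 0.9997, and 0.493 with pairs blocked. The authors' deposited table gave an unadjusted p of 0.00536 for it, without naming the test.

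The other Ece2 probe set, 1424561_at, read 6.32, 6.08, 6.16 and 6.10 in Control 1 to 4 and 6.33, 6.29, 6.37 and 6.24 in Z/Edn2 1 to 4. Here Control 1 lay among the Z/Edn2 arrays, and the other 3 Control arrays lay below them all. Its log2 fold change was 0.14 ± 0.0819 (SE; limma adjusted p = 0.9997), with 4 of 4 pairs higher. Both Ece2 probe sets kept positive values in every omission of an array or a pair, from 0.18 to 0.30 for 1423358_at and from 0.11 to 0.19 for 1424561_at over all alternatives run. They were also among the tighter probe sets, with within-group SDs of 0.0814 and 0.0849 that only 6.92% and 8.08% of probe sets within 0.5 of their level fell below. Around the group means the 2 had a Pearson r of −0.02 over the 8 arrays.

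The promoter of Ece2 is shown as that of the gene with the only separated probe set. These are the 250 bases before its start in RefSeq (GRCm38.p6, plus strand, chr16:20629601-20629850), with the single match to ACGTG in capitals, which begins 92 bases before the start.
Ece2: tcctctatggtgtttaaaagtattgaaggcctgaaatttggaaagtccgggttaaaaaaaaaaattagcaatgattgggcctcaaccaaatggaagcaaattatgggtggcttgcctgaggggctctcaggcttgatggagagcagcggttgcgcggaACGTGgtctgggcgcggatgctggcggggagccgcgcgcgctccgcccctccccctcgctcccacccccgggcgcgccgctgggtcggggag
The match is a description of this window and no evidence that a factor binds there. Of the 4 Ece1 windows, 1 held the motif, on both strands at the palindrome that contains it.

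Ece1, the main converting enzyme of endothelium and many other cells, was bright and varied more between pools than between genotypes. Probe set 1455741_a_at read 9.20, 8.38, 8.97 and 9.07 in Control 1 to 4 and 9.42, 8.27, 8.89 and 9.28 in Z/Edn2 1 to 4. Replicate 2 was the lowest and replicate 1 the highest in each genotype. The log2 fold change was 0.064 ± 0.258 (SE; limma adjusted p = 0.9997), and with the replicate number as a block its SE was 0.0887 and the adjusted p 0.865.

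Probe set 1434177_at of Ece1 read 8.65, 7.95, 7.91 and 8.29 in Control 1 to 4 and 8.72, 7.48, 8.41 and 8.47 in Z/Edn2 1 to 4. Replicate 1 was again the highest in each genotype, and Z/Edn2 2 was the lowest of all 8 arrays. Its log2 fold change was 0.068 ± 0.266 (SE). The dim probe set 1441423_at lay between 4.78 and 5.38 in Control and between 4.78 and 5.39 in Z/Edn2, with replicate 2 the lowest in each, and had a log2 fold change of −0.020 ± 0.16 (SE).

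The 3 Ece1 probe sets varied together, with pairwise Pearson r of 0.55, 0.70 and 0.88 over the 8 arrays after removal of the group means. Of the within-group variance, 95.9% lay between same-numbered pairs for 1455741_a_at and for 1441423_at and 80.6% for 1434177_at, against a median of 69.6% over all probe sets. These shares exceeded those of 93.7%, 93.7% and 65.9% of all probe sets. Control 1 and Z/Edn2 1, where the bright Ece1 probe sets were highest, also had the smallest 3′ minus 5′ difference of the actin control, at 0.65 and 0.56 against 1.06 to 1.42 elsewhere (log2). Replicate 2, where 1455741_a_at and 1441423_at were lowest in each genotype, was at 1.09 in Control and 1.10 in Z/Edn2, within that range. The rod marker Gnat1 ran in the reverse order of 1455741_a_at in both genotypes. It was at 9.59 and 9.17 in replicate 1 and at 12.2 and 11.5 in replicate 2 (Control and Z/Edn2). The other measured rod markers did not keep this order in both genotypes. The Mueller glia marker Aqp4 and the pigment epithelium marker Rpe65 did keep it in both, so the order was not limited to a rod gene. Aqp4 was at 4.995 and 4.227 in replicate 1 and at 7.422 and 6.103 in replicate 2 (Control and Z/Edn2). Rpe65 was at 6.08 and 5.86 in replicate 1 and at 7.23 and 7.02 in replicate 2. The parts of RNA quality and of tissue make-up in the Ece1 values were not tested, and what a replicate number shares was not given in the labels.

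**Figure D3:**
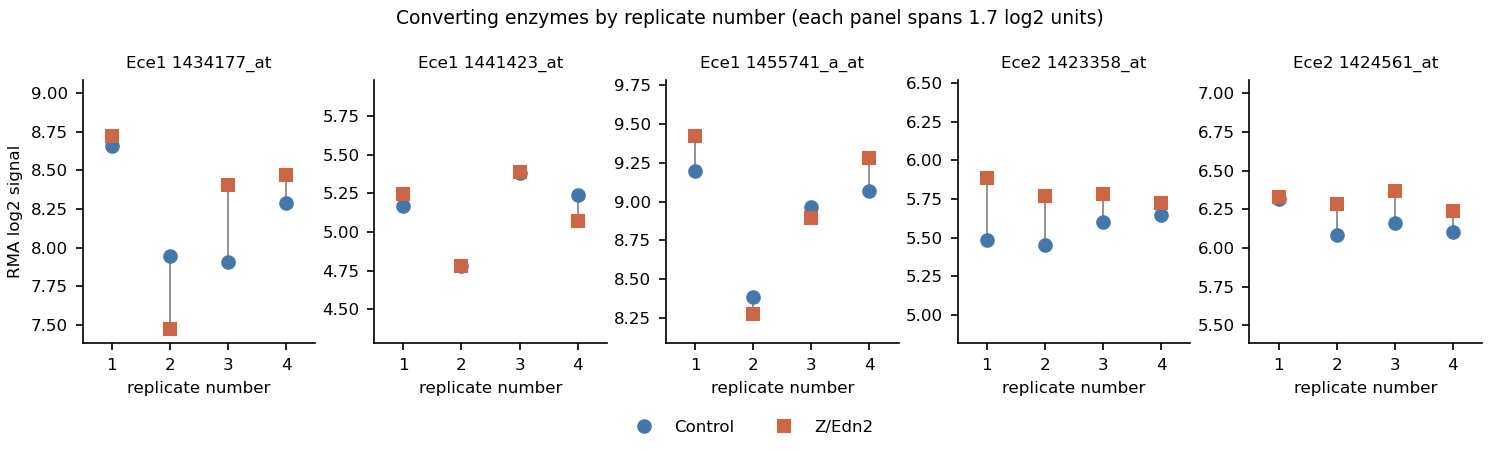
RMA log2 signal of the converting enzymes by replicate number, Control as blue circles and Z/Edn2 as orange squares, with a line joining each same-numbered pair. The Ece1 panels shift with the replicate number in both genotypes, with replicate 2 lowest in Z/Edn2 throughout, while the Ece2 panels show the Z/Edn2 square above the Control circle in all 4 pairs.

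The width of the Ece1 intervals came from this spread. The within-group SD was 0.457 for 1434177_at and 0.443 for 1455741_a_at, above 94.9% and 95.1% of probe sets within 0.5 of their level, whose median SDs were 0.16 and 0.155. By contrast the Edn3 probe set 1438696_at had an SD of 0.0693, above only 3.84% of its like. The SD of Edn1 was 0.0894, and its interval and those of Ece2 were accordingly narrower. The directions of Ece1 turned when single arrays were left out, with 1455741_a_at between −0.11 and 0.29 and 1434177_at between −0.082 and 0.33 over the 8 omissions.

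**Figure D4:**
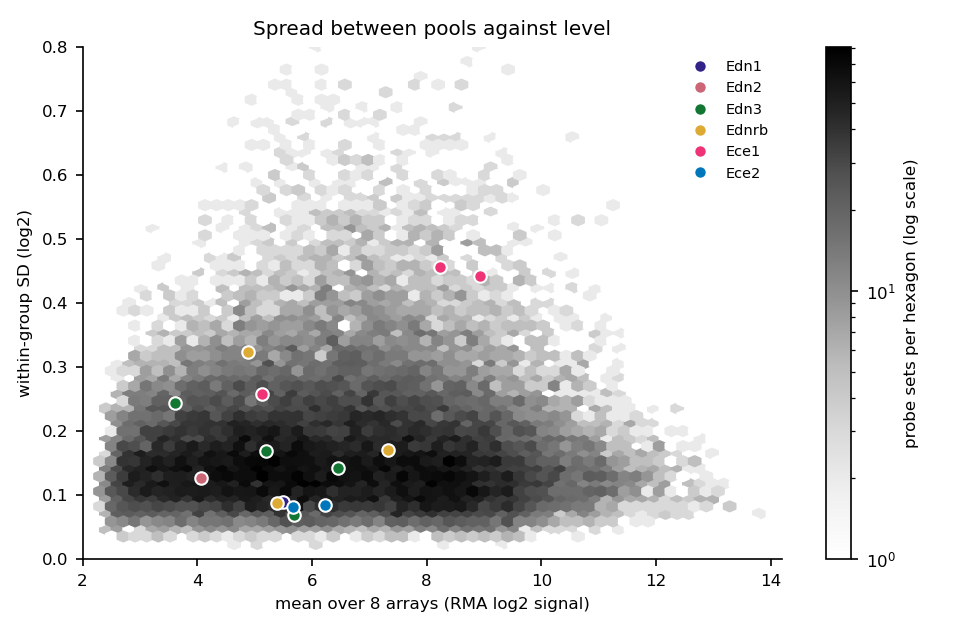
Within-group SD (log2) against mean RMA log2 signal over 8 arrays for all probe sets with 1 gene symbol (grey hexagons, darker for more probe sets, with 163 probe sets above the plotted limit of 0.8) and for the endothelin system (coloured points). The 2 bright Ece1 probe sets stand high for their level, at 0.457 and 0.443, and the Ece2 points lie near the lower edge.

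The other genes of the pathway, from peptide processing to receptor signalling, gave 0 calls among their probe sets. Of 6 measured prohormone convertases, which make the first cut, 3 had positive and 3 negative values. Those with the smallest p-values were Pcsk7, at a log2 fold change of 0.057, and Pcsk1, at −0.076. Of 6 peptidases of the converting enzyme family or of endothelin breakdown, 5 were above 0. They were led by Kel, a surface peptidase of red cells known in humans to activate endothelin 3, at 0.19, and Ecel1, a neuronal relative of the converting enzymes, at 0.078. Kel lay below the gauge.

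On the receptor side, 17 G proteins and effectors had 7 positive and 10 negative values and a median of −0.038. Plcb1, a phospholipase C that Gq-coupled receptors activate, lay between 7.63 and 8.25 in Control and between 7.38 and 7.76 in Z/Edn2. Its groups overlapped through Control 1, and its log2 fold change was −0.41 ± 0.151 (SE), with an unadjusted limma p of 0.0224 and an adjusted p of 0.9997. Plcb4, the phospholipase C next in order, was at −0.31 ± 0.175 (SE). Of 11 receptor regulators 8 were above 0, among them Arrb1, a beta-arrestin, at 0.21 and Rgs3, a regulator of G protein signalling, at 0.10.

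Neighbouring vasoactive systems also gave 0 calls. Of 9 genes of the nitric oxide pathway 4 were above 0, and Nos2, the inducible synthase, was at 0.15 and Gucy1b1, a subunit of the nitric oxide receptor, at −0.23. Of 8 genes of angiotensin and kinin peptides 5 were above 0. Kng1, the kinin precursor, lay between 4.22 and 4.32 in Control and between 3.94 and 4.12 in Z/Edn2, without overlap but below the gauge, with a log2 fold change of −0.23 ± 0.0773 (SE), with an unadjusted limma p of 0.0134 and an adjusted p of 0.9997. Bdkrb1, the kinin receptor of inflamed tissue, was at 0.16 ± 0.0829 (SE). Nos2 and Bdkrb1 lay below the gauge too. Mural cells, which contract in response to endothelins, had 5 of 7 markers above 0, with 0 of 13 probe sets past the threshold. Their marker mean lay between 5.91 and 6.19 in Control and between 6.00 and 6.44 in Z/Edn2. Tagln (0.32) did not overlap, with an unadjusted limma p of 0.00126 and an adjusted p of 0.362. Acta2 (0.46) overlapped, with an unadjusted limma p of 0.0566. The lens markers had a mean between 5.74 and 6.26 in Control and between 5.76 and 6.38 in Z/Edn2. Whether their signal came from carried-over lens or from the retina was not tested.

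Genes whose pattern over the 8 arrays was most like that of each member were found by Pearson r of the deviations from the group means, each gene by its brightest probe set. Ece1 had the most close matches, with 136 of 18192 genes above an r of 0.9, led by Adgra3 (0.98), Sinhcaf (0.98) and Tpm3 (0.98). Ece2 had 51, led by Med4 (0.99), Neurod6 (0.97) and Spag7 (0.97), and Edn1 had 40, led by Tgfbr1 (0.99), Zfp704 (0.98) and BC052040 (0.98). Edn3 had 33, led by Adk (0.98), 5330411J11Rik (0.98) and Ttll9 (0.98), and Ednrb had 13, led by Ccl1 (0.98), Hp (0.97) and Pfn4 (0.95). Edn2 was left out because its probe set was below the gauge. The gauge was not applied to the matches, and Neurod6, 5330411J11Rik, Ccl1 and Hp lay below it. Each r rests on 8 arrays and is the highest of 18192, so it describes these libraries only.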

How the data were processed

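The authors deposited log2 signal per probe set, made with RMA per the submitters' processing notes, with no version given; RMA corrects background, equalizes quantiles across arrays and summarizes the probes of a probe set. The values were used as deposited. The authors' deposited table also held per probe set a log2 fold change, a fold change as a signed score (below 0 where Z/Edn2 was lower) and a p-value without adjustment. Its log2 fold changes matched Z/Edn2 minus Control differences of the group means within 4.9e-08. RNA was biotin-labelled with the Affymetrix 3′ IVT Express kit, per the labels. The number of arrays limits the precision.

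Of 45101 probe sets, 64 were array controls, 932 had several gene symbols, 9160 had none and 34945 had 1, and these last entered a fit in limma 3.58.1 (lmFit, eBayes, two-sided) in R 4.3.3. Benjamini-Hochberg adjustment ran over all of them, with a threshold of 0.05 and no filter, and the fit was tested on simulated data. Of these, 34741 were found in a RefSeq gene table (GRCm38.p6) and 0 symbols changed. The labels call the arrays biological replicates, so p-values measure the spread between 8 pools. Same-numbered arrays correlated at 0.72, 0.39, 0.15 and 0.28 across genes after removal of group means, above the bound of 0.1 for each pair. The fit was therefore repeated with replicate number as a block. Control 3, however, correlated more with Z/Edn2 4 (0.217) and Z/Edn2 2 (0.155) than with Z/Edn2 3 (0.150). The bound was thus also passed by arrays of unlike number. Named genes were all member probe sets, the 2 genes with the smallest p of each pathway list (by the probe set with the highest mean), and the 3 genes most like each member. Single markers of cell types were also named, with their values known. Members and lists were chosen with earlier results of these data known.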

Additional observations from a re-analysis of the deposited data

How the results depend on the processing

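The count of member probe sets that passed was 0 in each of the 20 alternatives run, and the unadjusted count under 0.05 was 0 to 2. The count over all probe sets, 40, was 94 with the replicate block, between 10 and 40 when single arrays were left out (lowest without Z/Edn2 4), and 34, 10, 11 and 3 when pair 1, 2, 3 or 4 was omitted. The block changed no call of a member. The exact permutation p of Edn2 was 0.0857 to 0.257 over the omissions of an array, 0.114 after median centring and 0.125, the smallest possible, by sign permutation within pairs. Of 267 member changes under alternatives, 32 reversed direction, all in values that had not passed, and the cause was not tested. Median centring turned Edn1 (−0.015), and array weights turned Edn3 1421136_at (−0.013) and 1441924_x_at (0.0081). Without pairs, Ednrb 1423594_a_at (−0.026) and 1437347_at (−0.010) turned for replicate 1, Edn3 1421136_at (−0.083) and 1441924_x_at (0.11) and Ece1 1434177_at (−0.076) for replicate 3, and Edn1 (−0.024) and Ece1 1441423_at (0.030) for replicate 4. Without Control 1, Z/Edn2 1 and Z/Edn2 3, Edn3 1421136_at (−0.16), 1441923_s_at (−0.071) and 1441924_x_at (0.055), Ednrb 1423594_a_at (−0.16) and Ece1 1434177_at (−0.076) and 1455741_a_at (−0.027) turned. Over single omissions, the log2 fold change lay between −0.038 and 0.043 for Edn1, −0.076 and 0.18 for Edn3 1421136_at, −0.058 and 0.068 for Edn3 1441924_x_at, −0.053 and 0.26 for Ednrb 1423594_a_at, −0.082 and 0.33 for Ece1 1434177_at, −0.14 and 0.093 for Ece1 1441423_at, and −0.11 and 0.29 for Ece1 1455741_a_at. The 5 probe sets that kept their direction throughout were Edn2 1449161_at, Edn3 1438696_at, Ednrb 1426314_at and both of Ece2. The 5 dim member probe sets, which include that of Edn2, were not tested when dim probe sets were left out.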
